A study of Homo sapiens with 21 samples.

Results

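Gene expression was compared between YAPKO1, a line of NLF cells in which the gene YAP1 was targeted with CRISPR-Cas9 and 1 guide, and sgCON, a line of the same cells carrying Cas9 and a scrambled guide, both grown in DMSO. NLF is an established human neuroblastoma cell line. The comparison uses 6 of the 21 libraries of the series, 3 of YAPKO1 in DMSO and 3 of sgCON in DMSO, chosen by their labels alone. A further 3 libraries of parental NLF cells, which carry neither guide, serve as a reference level, and the labels leave unclear whether they were treated in the same way. The labels give a lentivirus as the carrier of Cas9 and the scrambled guide in sgCON, and name no carrier for the knockout lines. DMSO, the solvent of the MEK inhibitor trametinib, was added 24 h after plating for 72 h, and its concentration is given as 0.01% for each sample but as 0.1% for the series. The series also holds a second knockout line, YAPKO2, and YAPKO1, YAPKO2 and sgCON in trametinib at 20 nM. The fit behind the tests took its spread from all 21 libraries. The labels do not say whether a line is 1 clone or a pool, nor whether the 3 replicates are separate cultures. The p-values therefore stand for sample-to-sample spread alone, some or all of which could be technical.

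YAP1 encodes YAP, a transcriptional coactivator. The Hippo kinases LATS1 and LATS2 phosphorylate YAP and its paralogue TAZ and keep them in the cytoplasm. In the nucleus YAP and TAZ bind the TEAD factors, which contact DNA, and with them they raise transcription of genes for matrix, adhesion and cytoskeletal proteins. In neuroblastoma, a tumour of the sympathetic nervous system, cells range between an adrenergic state, run by factors such as HAND2 and GATA3, and a mesenchymal state with matrix and motility genes, and YAP activity is known as a feature of the mesenchymal state.

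The guide sequences are shown because the guides of both knockout lines match the same short stretch of YAP1. Lower-case letters are the guides, and capitals mark the adjacent PAM, the motif that Cas9 needs next to its target.
YAPKO1 guide and PAM: cgccgtcatgaaccccaagaCGG
YAPKO2 guide and PAM: gtgcacgatctgatgcccggCGG
sgCON guide: gcactcacatcgctacatca
The YAPKO1 guide matched exon 1 of YAP1 at chr11:102111058-102111077 on the plus strand (GRCh38), in coding sequence of 7 of the 11 annotated transcripts. The YAPKO2 guide matched the minus strand of the same exon at chr11:102110997-102111016. The scrambled guide had 0 exact matches among annotated transcripts. In the exon sequence chr11:102110984-102111090, plus strand, both sites with their PAM are in capitals.
YAP1 exon 1: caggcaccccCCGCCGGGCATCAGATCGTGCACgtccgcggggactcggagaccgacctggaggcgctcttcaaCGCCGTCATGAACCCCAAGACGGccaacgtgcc

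Values are FPKM, the authors' fragments scaled by transcript length and sequencing depth, divided here by a scaling factor per library. The number of reads is unknown, and the 6 libraries had 13935 to 14187 genes at an FPKM of 1 or more. YAPKO1 replicate 3 stood apart in its relation to transcript GC content. The log2 difference along GC was -0.404, -0.218 and 0.677 in the YAPKO1 libraries, against -0.399, -0.476 and -0.376 in the sgCON libraries. Across 15615 genes the log2 change correlated with GC at a Spearman coefficient of 0.347, and at 0.0973 without that replicate. Among the fourth of genes with the least GC (up to 41.7%) the median log2 change was -0.27, and -0.08 without it. The count of all changed genes, and several list counts, are therefore also given without YAPKO1 replicate 3. In bulk RNA, fewer cells of a type and less RNA per cell cannot be told apart.

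YAP1 RNA was lower in YAPKO1 but far from absent. It stood at 13.2, 12.9 and 9.05 FPKM in the YAPKO1 libraries, against 24.9, 24.2 and 27.7 FPKM in the sgCON libraries, while the parental libraries had 29.4, 32.8 and 33.3 FPKM. The groups did not overlap, and the log2 change was -1.12 ± 0.23 (SE; limma adjusted p = 0.00365). YAPKO2, the other knockout line, averaged 2.89 FPKM in DMSO, and YAPKO1 lay above it by 1.83 on the log2 scale (adjusted p = 4.69e-05). RNA levels do not show how much YAP protein either line still made.

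Of 16194 genes tested, 993 (6.13%) were higher and 934 (5.77%) were lower in YAPKO1 than in sgCON at a limma adjusted p under 0.05. These 2 shares are the background for the percentages of list members below. Protein-coding genes made up 864 of the higher and 809 of the lower ones. A log2 change of at least 1 was reached by 259 higher and 290 lower genes. Over all genes tested the median log2 change was 0.00 to 2 decimals. Without YAPKO1 replicate 3, 610 genes were called higher and 678 lower, of which 561 and 586 were among those called with all 6 libraries. With the spread estimated from the 2 groups alone, 353 were higher and 384 lower.

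**Figure D1:**
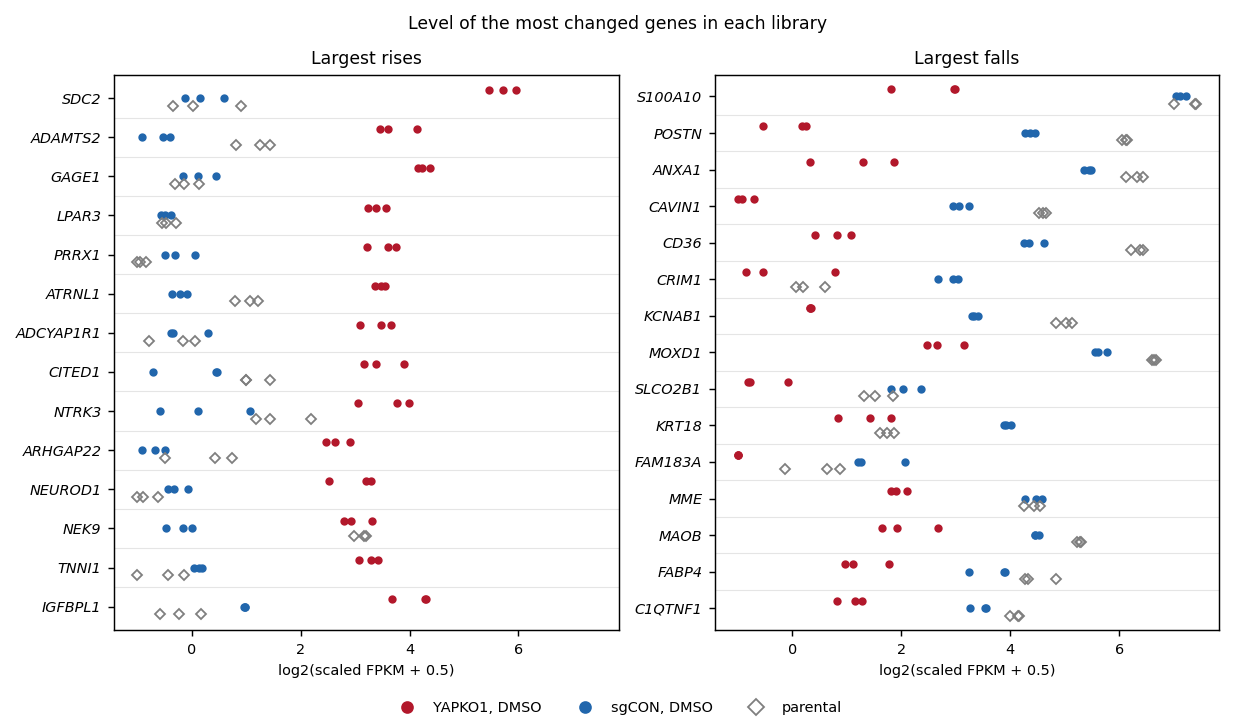
Level of 14 of the 15 largest rises and of the 15 largest falls among protein-coding genes, as log2(scaled FPKM + 0.5), with 1 point for each library of YAPKO1 in DMSO (red), sgCON in DMSO (blue) and parental cells (open). The YAPKO1 and sgCON points do not overlap for any of these genes, which the rule that chose them required. For NEK9 and KRT18, among others, the parental points lie near those of YAPKO1. The parental mean lay on the YAPKO1 side of the sgCON mean for 8 of all 15 rises and 5 of the 15 falls.

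In the plot of levels the leading rises, ranked by log2 change, were mostly genes that sgCON cells hardly expressed. LPAR3, a receptor for lysophosphatidic acid, had 8.99, 9.88 and 11.4 FPKM in YAPKO1, against 0.216, 0.181 and 0.269 FPKM in sgCON (log2 change 3.87 ± 0.19, adjusted p = 3.91e-10). PRRX1, a homeobox factor of mesenchymal cells, had 12.9, 11.6 and 8.8 FPKM in YAPKO1, against 0.216, 0.312 and 0.548 FPKM in sgCON (3.76 ± 0.20, adjusted p = 1.16e-09). ADAMTS2, a protease that trims procollagen, had 11.7, 10.5 and 17.0 FPKM in YAPKO1, against 0.196, 0.262 and 0.0299 FPKM in sgCON (4.35 ± 0.21, adjusted p = 3.91e-10). In all 3 genes every YAPKO1 library lay above every sgCON library, as the rule that chose them required. The next rises included ADCYAP1R1, the receptor for the neuropeptide PACAP, with 10.6, 8.0 and 12.2 FPKM in YAPKO1, against 0.265, 0.736 and 0.289 FPKM in sgCON. ATRNL1, an attractin-like membrane protein, had 9.78, 10.7 and 11.3 FPKM in YAPKO1, against 0.363, 0.443 and 0.279 FPKM in sgCON. IGFBPL1, related to the insulin-like growth factor binding proteins, had 12.3, 18.9 and 19.3 FPKM in YAPKO1, against 1.47, 1.45 and 1.48 FPKM in sgCON. CITED1, a transcriptional coregulator, ARHGAP22, a GTPase activating protein, and TNNI1, the troponin I of slow muscle, rose by 3.42, 3.36 and 3.14 on the log2 scale. Among these 3, CITED1 ranged the most widely within sgCON, at 0.864, 0.111 and 0.877 FPKM.

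Some of the largest changes involve near-identical gene copies that the authors' quantification could split, and these are uncertain. GAGE1, a cancer-testis antigen of a family of near copies, had 20.4, 18.2 and 17.4 FPKM in YAPKO1, against 0.393, 0.867 and 0.588 FPKM in sgCON. The histone genes HIST2H2AA3 and HIST2H2AC, uncertain in the same way, were among the largest rises in level. H19, an imprinted long non-coding RNA chosen after its values were seen, had 52.6, 66.3 and 93.8 FPKM in YAPKO1, against 4.79, 7.08 and 6.09 FPKM in sgCON (3.44 ± 0.25, adjusted p = 4.76e-08).

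The 15 largest falls included CD36, MOXD1 and MME. CD36, a scavenger receptor and fatty acid transporter, had 1.60, 1.27 and 0.840 FPKM in YAPKO1, against 19.8, 18.5 and 24.1 FPKM in sgCON (-3.63 ± 0.22, adjusted p = 6.45e-09), and the parental mean was 81.1 FPKM. MOXD1, a copper monooxygenase related to DBH and known as a neural crest marker, had 8.41, 5.06 and 5.83 FPKM in YAPKO1, against 46.4, 54.0 and 48.3 FPKM in sgCON (-2.88 ± 0.14, adjusted p = 2.27e-10). MME, the peptidase neprilysin, had 3.81, 3.24 and 3.03 FPKM in YAPKO1, against 23.5, 18.8 and 21.8 FPKM in sgCON (-2.50 ± 0.15, adjusted p = 6.86e-09). The 2 groups did not overlap in any of these genes, as the rule that chose them required. KCNAB1, a potassium channel beta subunit, had 0.747, 0.748 and 0.769 FPKM in YAPKO1, against 9.31, 9.58 and 10.1 FPKM in sgCON. SLCO2B1, an organic anion transporter, had 0.0671, 0.0808 and 0.446 FPKM in YAPKO1, against 3.02, 4.63 and 3.58 FPKM in sgCON. C1QTNF1, a secreted relative of complement C1q, and FABP4, a fatty acid carrier of adipocytes and macrophages, fell by 2.37 and 2.39 on the log2 scale. FAM183A was listed at 0 in all 3 YAPKO1 libraries, against 3.69, 1.89 and 1.81 FPKM in sgCON.

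Among the factors of the pathway itself, VGLL4, which competes with YAP for TEAD binding, was higher. Its level was 22.8, 25 and 28.4 FPKM in YAPKO1, against 12.8, 13.8 and 13.9 FPKM in sgCON, a log2 change of 0.88 ± 0.09 (adjusted p = 4.41e-06), and the parental mean was 23.3 FPKM, near YAPKO1. TEAD3 was at 3.70, 3.48 and 5.4 FPKM in YAPKO1, against 5.88, 6.31 and 6.11 FPKM in sgCON (-0.51, adjusted p = 0.0229), and its call was lost when YAPKO1 replicate 1 (adjusted p = 0.0709), YAPKO1 replicate 2 (0.103), or sgCON replicate 1 (0.053), 2 (0.0782) or 3 (0.0678) was left out. Of the 22 Hippo kinases and upstream regulators, 0 were higher and 2 were lower (9.1%, near the 5.77% of all genes, and 1 without YAPKO1 replicate 2 or sgCON replicate 3) at an adjusted p under 0.05 by limma, and 2 were higher at an unadjusted p under 0.05. The 2 lower ones were PTPN14, a phosphatase that holds YAP out of the nucleus, at -0.72, and the kinase LATS2 at -0.58, and both are also known as YAP targets. LATS2 lost its call without YAPKO1 replicate 2 (adjusted p = 0.0607) or sgCON replicate 3 (0.0576).

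Known YAP/TAZ-TEAD targets were lower where they changed. Of 21 tested, 8 were lower (38.1%, against 5.77% of all genes) and 0 were higher by limma, also at an unadjusted p under 0.05, with a median log2 change of -0.41 against 0.00 over all genes. Without YAPKO1 replicate 3, 7 were lower, and with only the 6 libraries compared in the fit, 6 were. FSTL1, a secreted follistatin-like glycoprotein, had 32.7, 31.4 and 29.9 FPKM in YAPKO1, against 58.1, 52.3 and 59.0 FPKM in sgCON (-0.84 ± 0.10, adjusted p = 1.24e-05). AMIGO2, an adhesion molecule, had 0.0766, 0.0909 and 0.162 FPKM in YAPKO1, against 1.48, 1.9 and 1.5 FPKM in sgCON (-1.80, adjusted p = 1.31e-05), and the parental mean of 0.138 FPKM was as low as YAPKO1. MYOF, the membrane repair protein myoferlin, fell by 1.10 on the log2 scale but stayed under 1.1 FPKM in all 6 libraries. Not all members followed: CTGF had 0.383, 0.303 and 0.354 FPKM in YAPKO1, against 0.795, 0.282 and 0.917 FPKM in sgCON, which overlap (-0.41, adjusted p = 0.298). AXL, a receptor tyrosine kinase, had 1.27, 1.3 and 1.81 FPKM in YAPKO1, against 1.57, 1.09 and 1.56 FPKM in sgCON.

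The core letters of the TEAD site, GGAATG on either strand (CATTCC on the other), were searched in the 250 bases before the RefSeq start of each gene. They were present in 3248 of 27305 RefSeq promoters (11.9%) and in 939 of 10050 promoters of tested genes (9.34%). Among called genes with a promoter they were found in 73 of 654 lower ones (11.2%) and 50 of 682 higher ones (7.33%). A match is a stretch of letters and not a measured binding site. The windows of 5 lower genes are shown as examples, picked after their values were seen, with the motif in capitals, up to 20 bases on either side, 5′ to 3′ on the gene's strand (RefSeq, GRCh38.p14).
CD36, chr7:80602094-80602139, plus strand: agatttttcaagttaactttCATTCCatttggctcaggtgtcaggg
MME, chr3:155079433-155079478, plus strand: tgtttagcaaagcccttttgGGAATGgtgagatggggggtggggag
CAVIN2, chr2:191847089-191847124, minus strand: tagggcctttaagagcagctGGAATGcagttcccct
EPHA2, chr1:16156117-16156162, minus strand: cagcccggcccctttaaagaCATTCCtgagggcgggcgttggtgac
PTPN14, chr1:214551777-214551822, minus strand: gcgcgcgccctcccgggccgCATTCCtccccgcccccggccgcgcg
Relative to the start of transcription, the motif began at base -93 in CD36, -219 in MME, -16 in CAVIN2, -73 in EPHA2 and -200 in PTPN14.

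In the annexin and S100 list 7 of 17 tested genes were lower (41.2%, against 5.77% of all genes) and 2 were higher (11.8%, against 6.13%). Without YAPKO1 replicate 3 the counts were 5 and 1. A single higher member was also left without YAPKO1 replicate 2 or any 1 of the sgCON libraries. AHNAK2, a giant scaffold protein, had 0.230, 0.202 and 0.233 FPKM in YAPKO1, against 1.69, 1.86 and 1.93 FPKM in sgCON (-1.69, adjusted p = 7.22e-06). S100A4, a calcium-binding protein linked to motility, went the other way, with 96.2, 102 and 128 FPKM in YAPKO1, against 73.4, 69.5 and 66.4 FPKM in sgCON (0.63, adjusted p = 0.0036). Of 6 caveola genes tested 2 were lower (33.3%) and 1 was higher (16.7%). CAVIN2, a coat protein of caveolae, the small pits of the plasma membrane, had 2.4, 1.53 and 1.38 FPKM in YAPKO1, against 8.28, 8.38 and 7.98 FPKM in sgCON (-1.97, adjusted p = 1.08e-07). The promoter of CAVIN2 printed above holds the TEAD letters nearest to its start.

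Matrix glycoprotein genes were mostly lower where they changed, and collagen genes changed in both directions. Of 19 matrix glycoprotein and matricellular genes, 10 were lower (52.6%) and 1 was higher (5.3%), with a median log2 change of -0.49. Without YAPKO1 replicate 3 the counts were 9 and 0. With only the 6 libraries compared in the fit, 6 were lower and 0 were higher. The higher one, FBN2, was likewise not called without YAPKO1 replicate 2 or any 1 of the sgCON libraries. SPARC, a collagen-binding glycoprotein, had 91.0, 78.8 and 97.1 FPKM in YAPKO1, against 177, 168 and 172 FPKM in sgCON (-0.95 ± 0.11, adjusted p = 1.79e-05). MATN2, the adaptor protein matrilin 2, had 2.56, 1.87 and 2.24 FPKM in YAPKO1, against 9.05, 8.79 and 8.27 FPKM in sgCON (-1.76, adjusted p = 1.4e-05). LTBP1, which holds latent TGF-beta in the matrix, fell by 0.97, and ELN, elastin, by 0.96 on the log2 scale. Of 16 collagen genes 5 were higher (31.2%) and 2 were lower (12.5%). But 3 were higher without YAPKO1 replicate 3 or sgCON replicate 3, 2 were higher without sgCON replicate 2, and 1 was lower without sgCON replicate 1. COL6A3 had 9.06, 9.53 and 9.29 FPKM in YAPKO1, against 19.7, 17.2 and 19.3 FPKM in sgCON (-0.97, adjusted p = 2.06e-05). COL14A1, a collagen of the fibril surface, had 13.4, 11.3 and 8.54 FPKM in YAPKO1, against 1.14, 1.05 and 1.5 FPKM in sgCON (2.73, adjusted p = 7.02e-09). The 2 chains of collagen I moved apart, COL1A1 at -1.17 and COL1A2 at 0.87. Both calls rest on single libraries: COL1A1 had an adjusted p of 0.058 without YAPKO1 replicate 1 and 0.0659 without sgCON replicate 1, and COL1A2 one of 0.0709 without YAPKO1 replicate 3 and 0.0928 without sgCON replicate 2. FN1, fibronectin, had 60.8, 66.6 and 66.7 FPKM in YAPKO1, against 76.3, 76.4 and 80.0 FPKM in sgCON, and did not pass the test (-0.26, adjusted p = 0.0738).

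Adhesion receptors and intermediate filaments changed in both directions. Among 20 integrin and laminin genes 4 were lower (20%, or 5 genes without YAPKO1 replicate 3), including ITGB8 (-0.87) and ITGA2 (-0.99). In the same list 1 was higher (5%, near the share of all genes). That one was ITGA9, an alpha subunit that binds tenascin and osteopontin, with 1.90, 1.93 and 2.15 FPKM in YAPKO1, against 0.108, 0.484 and 0.149 FPKM in sgCON (1.77, adjusted p = 1.41e-06). Of 18 cadherins and cell adhesion molecules 5 were lower (27.8%) and 1 was higher (5.6%), and 3 were lower without YAPKO1 replicate 3 or any 1 of the sgCON libraries. CDH6, a cadherin of neural crest, had 3.92, 3.53 and 2.45 FPKM in YAPKO1, against 13.7, 12.9 and 12.4 FPKM in sgCON, whereas CDH7 had 5.52, 3.71 and 5.90 FPKM in YAPKO1, against 1.38, 1.17 and 1.25 FPKM in sgCON. Of 13 intermediate filament genes 4 were higher (30.8%) and 3 were lower (23.1%), and without YAPKO1 replicate 3 the counts were 3 and 3. KRT18 had 2.18, 1.28 and 3.03 FPKM in YAPKO1, against 14.3, 14.7 and 15.7 FPKM in sgCON (-2.59 ± 0.21, adjusted p = 2.17e-07), and its partner KRT8 fell by 1.06 on the log2 scale. The parental mean of KRT18 was 2.85 FPKM, at the level of YAPKO1. PRPH, the peripheral neuron filament peripherin, had 48.5, 48.1 and 70.0 FPKM in YAPKO1, against 17.5, 17.0 and 17.3 FPKM in sgCON (1.63, adjusted p = 5.81e-06). INA, the neuronal filament internexin, rose by 1.44, and DES, the muscle filament desmin, by 1.81 on the log2 scale. VIM, vimentin, the filament of mesenchymal cells and one of the most abundant RNAs here, averaged -0.29 and did not pass the test (adjusted p = 0.213).

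Transcription factors of sympathetic neuroblasts were higher where they changed, with 1 exception. Of 17 adrenergic factors tested, 6 were higher (35.3%, against 6.13% of all genes) and 1 was lower, and without YAPKO1 replicate 3 the counts were the same. Without YAPKO1 replicate 2 or sgCON replicate 3, 5 were higher. With only the 6 libraries compared in the fit, 3 were higher and 0 were lower. MYCN, the oncogene that drives a class of neuroblastomas, had 179, 197 and 244 FPKM in YAPKO1, against 98.8, 98.1 and 92.2 FPKM in sgCON (1.09 ± 0.12, adjusted p = 1.04e-05). The parental mean of MYCN was 31.9 FPKM, below both lines. GATA3 was lower at -0.44 on the log2 scale, a call that was lost without sgCON replicate 1 (adjusted p = 0.0541). HAND2 had 67.6, 73.1 and 82.7 FPKM in YAPKO1, against 67.8, 76.7 and 71.0 FPKM in sgCON, which overlap.

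Notch pathway and neurogenic factor genes, which guide the choice between progenitor and neuron, were also mostly higher among those called. Of 21 tested, 7 were up (33.3%) and 2 down (9.5%), and 6 and 2 without YAPKO1 replicate 3. DLL3, an inhibitory Notch ligand, had 15.3, 19.5 and 22.8 FPKM in YAPKO1, against 3.94, 4.37 and 3.96 FPKM in sgCON (2.08 ± 0.17, adjusted p = 2.96e-07). HEY1, a repressor that Notch switches on, had 14.2, 15.7 and 18.6 FPKM in YAPKO1, against 7.50, 7.85 and 7.84 FPKM in sgCON (1.01, adjusted p = 3.47e-05). ATOH8 rose by 1.12 and DTX4, a Notch regulator, by 1.33, while the ligand JAG1 was at -0.98 on the log2 scale. Outside the bins of neighbouring genes described below, 7 of 20 in this list were higher and 1 was lower.

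Genes of the neurotrophin, RET and ALK receptor list were higher where they changed. These receptors carry survival and differentiation signals in sympathetic neurons, and the list also holds a ligand, ALKAL2. Of 14 tested, 8 were higher (57.1%, against 6.13% of all genes) and 0 were lower by limma, with 1 lower at an unadjusted p under 0.05, and the median log2 change was 0.67. Leaving out single libraries gave 5 to 7 higher members, and without YAPKO1 replicate 3 there were 5, as without YAPKO1 replicate 2 or sgCON replicate 2 or 3. With only the 6 libraries compared in the fit, 4 were higher. GFRA2, the receptor for neurturin that signals through RET, had 128, 140 and 169 FPKM in YAPKO1, against 56.3, 64.9 and 64.8 FPKM in sgCON (1.22 ± 0.15, adjusted p = 2.26e-05). LTK, a kinase related to ALK, rose by 0.94 on the log2 scale. The ligand ALKAL2 was called higher but lost its call in 4 of the 6 fits without 1 library (limma adjusted p up to 0.167). ALK itself was barely expressed, at 0.508, 0.465 and 0.446 FPKM in YAPKO1, against 0.0491, 0.0202 and 0.0498 FPKM in sgCON. RET had 16.8, 14.7 and 18.4 FPKM in YAPKO1, against 22.1, 16.2 and 16.5 FPKM in sgCON, which overlap.

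Genes for transmitter synthesis, peptides and their receptors did not move in 1 direction. Of 11 catecholamine genes 2 were higher (18.2%) and 3 were lower (27.3%), or 1 lower without sgCON replicate 2. DBH, which makes noradrenaline, rose to 0.929, 1.02 and 1.10 FPKM in YAPKO1, against 0.0294, 0 and 0.0498 FPKM in sgCON, and DDC, the decarboxylase that makes dopamine, had 11.2, 13.9 and 14.7 FPKM in YAPKO1, against 5.4, 8.38 and 5.61 FPKM in sgCON. TH, the first enzyme of that route, stayed at or under 0.0608 FPKM in all 6 libraries. MAOB, a mitochondrial enzyme that degrades dopamine, had 3.27, 2.63 and 5.87 FPKM in YAPKO1, against 21.4, 21.5 and 22.6 FPKM in sgCON (-2.4 ± 0.22, adjusted p = 9.89e-07). Of 10 granin and neuropeptide genes 4 were lower (40%) and 1 was higher (10%), or 2 higher without YAPKO1 replicate 2 or sgCON replicate 2. NPY, neuropeptide Y, had 9.14, 9.95 and 11.6 FPKM in YAPKO1, against 40.7, 35.5 and 35.6 FPKM in sgCON (-1.82 ± 0.20, adjusted p = 9.09e-06). VGF, a granin, fell by 1.55 and PAM, which amidates peptides, by 0.72 on the log2 scale. CHRNA3, the acetylcholine receptor subunit of sympathetic ganglia, had 64.6, 62.9 and 62.6 FPKM in YAPKO1, against 16.9, 12.2 and 14.7 FPKM in sgCON (2.09 ± 0.13, adjusted p = 8.78e-09). Its partner CHRNB4 rose by 0.97, and these 2 were the called ones of 14 neurotransmitter receptors. Among 21 synaptic vesicle genes SYN2 (1.74) and SYP (1.05) rose and SNAP25 (-0.92) fell, and 2 were lower without YAPKO1 replicate 1.

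Among 34 axon guidance genes 8 were higher (23.5%) and 3 were lower (8.8%), with 6 higher and 2 lower without YAPKO1 replicate 3, and 5 higher without sgCON replicate 2. NRP1, a coreceptor for semaphorins and VEGF, had 8.03, 6.80 and 7.63 FPKM in YAPKO1, against 31.3, 27.5 and 32.6 FPKM in sgCON, and SEMA3C, a secreted semaphorin, had 0.259, 0.162 and 0.0709 FPKM in YAPKO1, against 3.42, 2.06 and 1.95 FPKM in sgCON. The log2 changes were -1.95 for NRP1 and -2.14 for SEMA3C. EPHB2, an ephrin receptor, had 11.4, 10.3 and 13.2 FPKM in YAPKO1, against 4.63, 3.15 and 3.74 FPKM in sgCON (1.49, adjusted p = 5.74e-05). PLXNA4, a semaphorin receptor, rose by 1.24 on the log2 scale.

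The factors named for the mesenchymal state of neuroblastoma were mixed, 5 of 19 higher (26.3%) and 2 lower (10.5%), and 4 and 2 without YAPKO1 replicate 3. Besides PRRX1, the rises were led by ID1, an inhibitor of helix-loop-helix factors, with 59.0, 66.6 and 69.8 FPKM in YAPKO1, against 30.1, 25.4 and 23.9 FPKM in sgCON, and by SNAI1, a repressor of epithelial genes, at a log2 change of 1.21. JUN, a subunit of AP-1, had 1.53, 1.34 and 2.04 FPKM in YAPKO1, against 3.82, 3.63 and 4.03 FPKM in sgCON (-1.03, adjusted p = 0.000151), and NFIB fell by 0.83. Growth factor receptors changed in both directions, 5 of 20 higher (25%) and 3 lower (15%), with 3 higher without YAPKO1 replicate 3 or any 1 of the sgCON libraries. PDGFRA, a receptor for platelet-derived growth factor, had 4.46, 4.84 and 2.36 FPKM in YAPKO1, against 0.334, 0.363 and 0.648 FPKM in sgCON (2.17 ± 0.25, adjusted p = 1.25e-05). ERBB4, a neuregulin receptor, had 1.48, 2.14 and 0.972 FPKM in YAPKO1, against 6.93, 7.19 and 5.88 FPKM in sgCON (-1.86 ± 0.28, adjusted p = 0.000273).

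Of 26 BMP, TGF-beta and ID genes 5 were higher (19.2%) and 4 were lower (15.4%). Without YAPKO1 replicate 2 or sgCON replicate 3 the counts were 3 and 2, and 3 were higher without sgCON replicate 2. GREM1, a secreted BMP antagonist, had 0.0766, 0.131 and 0.121 FPKM in YAPKO1, against 1.89, 2.01 and 2.31 FPKM in sgCON (-2.07 ± 0.18, adjusted p = 6.11e-07). SMAD6, an inhibitor of BMP signalling, rose by 0.89 on the log2 scale. In the Wnt list 2 of 26 were higher (7.7%, near the share of all genes) and 4 were lower (15.4%). Only 1 was higher without YAPKO1 replicate 1 or any 1 of the sgCON libraries. LGR5, a receptor for R-spondins, had 14.2, 14.1 and 7.99 FPKM in YAPKO1, against 25.1, 29.2 and 24.7 FPKM in sgCON, and WNT5B had 1.20, 1.73 and 1.96 FPKM in YAPKO1, against 0.206, 0.111 and 0.130 FPKM in sgCON.

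Targets of the tumour suppressor p53 were lower where they changed. Of 25 tested, 10 were lower (40%, against 5.77% of all genes) and 0 were higher by limma, with 1 higher at an unadjusted p under 0.05, and the median log2 change was -0.44. Leaving out single libraries gave 5 to 9 lower members, and leaving out YAPKO1 replicate 3 or any single sgCON library gave 5. A fit of only the 6 libraries compared also gave 5. The summed level of the list was 1241 to 1285 FPKM in YAPKO1, against 1816 to 1872 FPKM in sgCON, and 922 to 995 FPKM in parental cells. MDM2, the ligase that degrades p53, had 145, 147 and 82.9 FPKM in YAPKO1, against 245, 247 and 237 FPKM in sgCON (-1.0, adjusted p = 0.0275). Its call was lost without YAPKO1 replicate 3 (-0.73, adjusted p = 0.15) and without sgCON replicate 1, 2 or 3 (adjusted p = 0.0753, 0.0787 and 0.0701). All 3 YAPKO1 libraries of MDM2 were below all sgCON libraries, and the parental mean was 132 FPKM.

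**Figure D2:**
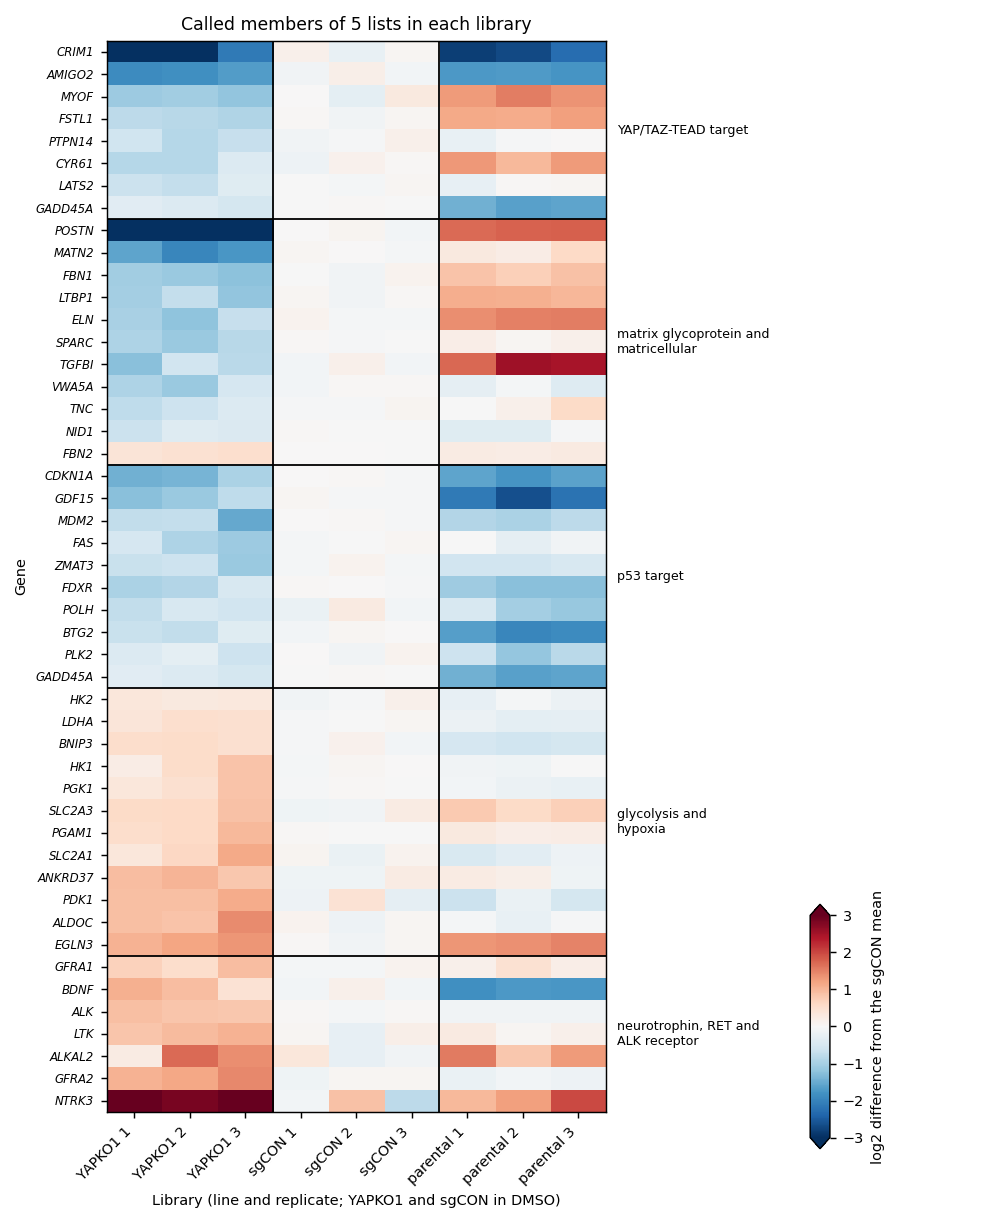
Called members of 5 gene lists, those described here, as the log2 difference of each library from the sgCON mean, with YAPKO1 on the left, sgCON in the middle and parental cells on the right. In YAPKO1 the members shown of the YAP target and p53 target lists are lower, as are those of the matrix glycoprotein list except FBN2. Members of the glycolysis list and of the neurotrophin, RET and ALK receptor list are higher. Only called members are shown, and the parental libraries lie on either side of sgCON, as for MYOF (above) and MDM2 (below).

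Proliferation genes showed few calls. Of 46 E2F and DNA replication genes 4 were higher and 1 was lower, and of 40 mitosis genes 2 were higher and 3 were lower. The 4 E2F genes became 2 without YAPKO1 replicate 1 or any 1 of the sgCON libraries. The mitosis genes called higher ranged between 0 and 4 over the fits without 1 library, with 0 without YAPKO1 replicate 3 or any 1 of the sgCON libraries, and 1 was lower without sgCON replicate 2 or 3. CDKN2A, the locus of the cell cycle inhibitors p16 and p14ARF, had 4.42, 6.0 and 7.71 FPKM in YAPKO1, against 1.72, 1.78 and 1.5 FPKM in sgCON (1.56 ± 0.32, adjusted p = 0.00393). Of the 19 genes that report MEK/ERK signalling, 3 were lower and 0 were higher by limma, with 3 higher at an unadjusted p under 0.05 and 1 called higher without YAPKO1 replicate 2. DUSP6, the phosphatase that ERK induces and that switches ERK off, had 9.45, 8.66 and 8.09 FPKM in YAPKO1, against 27.2, 23.5 and 22.6 FPKM in sgCON (-1.43 ± 0.19, adjusted p = 6.83e-05). EPHA2, an ephrin receptor, had 8.84, 9.37 and 14.3 FPKM in YAPKO1, against 22.7, 22.1 and 20.6 FPKM in sgCON (-1.01 ± 0.20, adjusted p = 0.00242). The third was PHLDA2 (-0.89), whose call was lost without YAPKO1 replicate 2 (adjusted p = 0.108) or sgCON replicate 1 (0.095) or 3 (0.12).

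Genes of glycolysis and the hypoxia response were higher in YAPKO1 where they changed, and mitochondrially encoded genes were lower. Of 31 glycolysis and hypoxia genes 12 were higher (38.7%, against 6.13% of all genes) and 0 were lower by limma, also at an unadjusted p under 0.05, with a median log2 change of 0.44, and 9 were higher without YAPKO1 replicate 3. With only the 6 libraries compared in the fit, 6 were higher. EGLN3, an oxygen sensor that hypoxia itself induces, had 15.7, 17.4 and 19.1 FPKM in YAPKO1, against 7.56, 6.81 and 7.74 FPKM in sgCON (1.18 ± 0.14, adjusted p = 1.25e-05). ALDOC, a glycolytic aldolase, had 30.2, 29 and 42.8 FPKM in YAPKO1, against 17.0, 14.1 and 16.5 FPKM in sgCON (1.06, adjusted p = 0.000551). PDK1, which keeps pyruvate out of mitochondria, rose by 0.97, PGK1 by 0.56 and LDHA, lactate dehydrogenase, by 0.44 on the log2 scale. All 13 mitochondrially encoded genes had a log2 change below 0, and 5 of them (38.5%) were called lower, with a median of -0.63, and 5 also without YAPKO1 replicate 3. MT-ATP6, a subunit of the ATP synthase, had 120, 113 and 125 FPKM in YAPKO1, against 192, 191 and 266 FPKM in sgCON (-0.83, adjusted p = 0.000712), and MT-ND4, a subunit of complex I, fell by 0.74. Cholesterol synthesis was among the lists without a call: by limma 0 of 23 genes were called, with 1 higher and 1 lower at an unadjusted p under 0.05.

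Cytosolic ribosomal protein genes depended on the libraries used. In DMSO 2 of 49 were higher and 1 was lower, with a median log2 change of 0.21, whereas without YAPKO1 replicate 3 limma called 0 in either direction, and without YAPKO1 replicate 1 it called 5 higher. In the gene-level ranking by FPKM difference, RPS29, another ribosomal protein gene, rose by 0.98 on the log2 scale, and TMSB4X, the actin-binding peptide thymosin beta 4, fell to 405, 414 and 361 FPKM in YAPKO1, against 616, 608 and 610 FPKM in sgCON. RPS27, RPS3A and RPS6 were also among the largest differences in level. RPS6 lost its call in 5 of the 6 fits without 1 library, and so did RPS27, while RPS3A lost it in 4 (adjusted p up to 0.222 for RPS6, 0.114 for RPS27 and 0.12 for RPS3A).

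**Figure D3:**
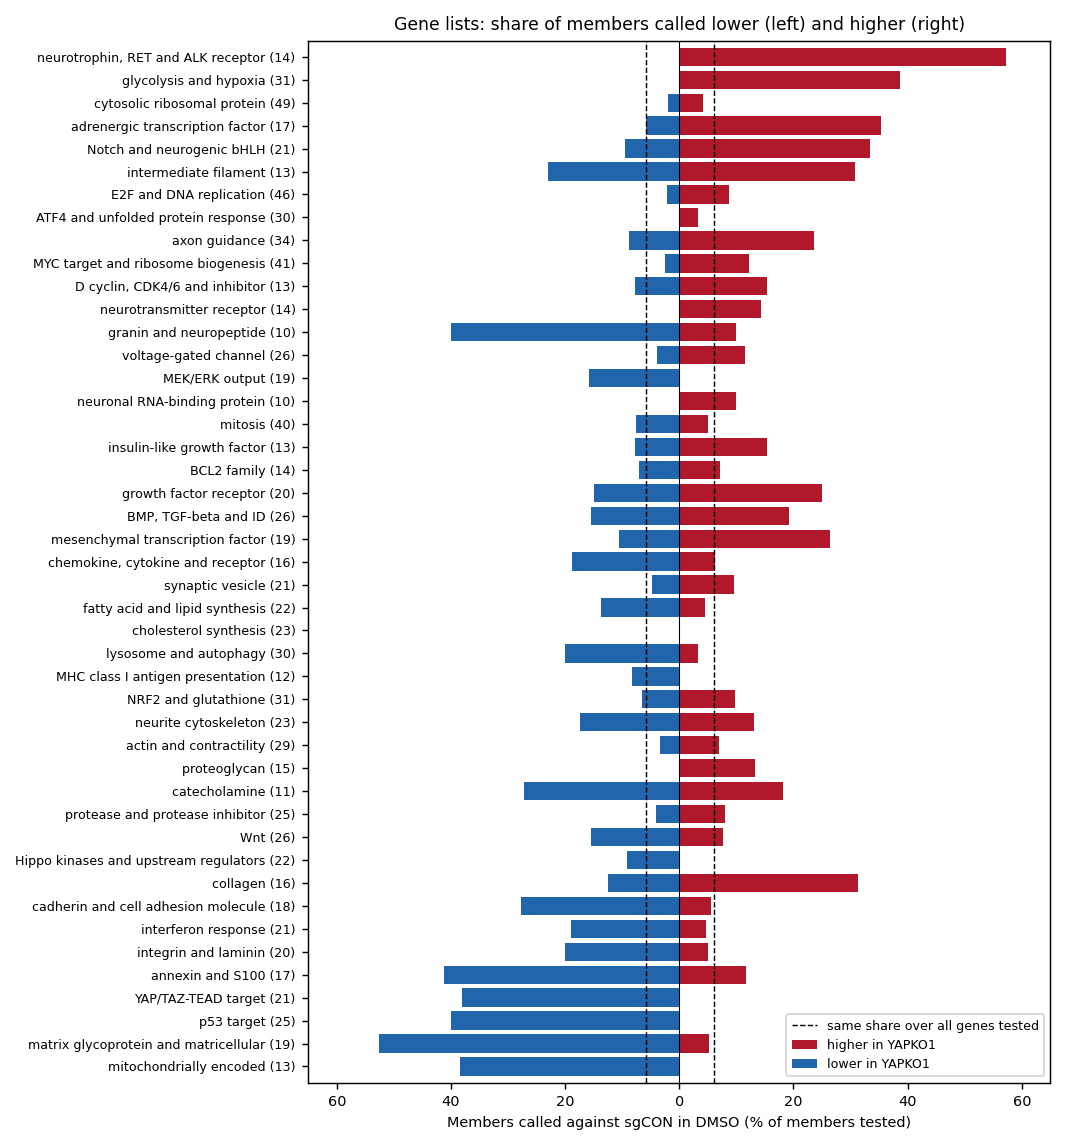
Share of the tested members of each gene list that was called lower (blue, left) or higher (red, right) in YAPKO1 against sgCON in DMSO, in percent, for lists with at least 10 tested members (number in brackets), ordered by median log2 change; dashed lines give the share over all genes tested. Neurotrophin, RET and ALK receptor genes reach 57.1% higher and matrix glycoprotein genes 52.6% lower.

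The plot of shares by list also shows lists that sit near the background, such as the mitosis, BCL2 family and actin genes. Single members of other lists also passed the test. CXCR4, the receptor for the chemokine CXCL12, had 2.62, 3.61 and 3.96 FPKM in YAPKO1, against 0.196, 0.403 and 0.299 FPKM in sgCON (2.28 ± 0.19, adjusted p = 2.96e-07). TNFRSF12A, the receptor for the cytokine TWEAK, had 3.12, 2.79 and 3.88 FPKM in YAPKO1, against 9.44, 8.76 and 10.6 FPKM in sgCON (-1.43 ± 0.17, adjusted p = 1.38e-05). SCN9A, a sodium channel of sympathetic and sensory neurons, had 26.8, 24.8 and 15.1 FPKM in YAPKO1, against 55.5, 54.5 and 54.3 FPKM in sgCON (-1.32 ± 0.25, adjusted p = 0.00172). Of 21 interferon response genes 4 were lower (19%) and 1 was higher (4.8%): IFI44L fell by 2.09 and BST2, which tethers viruses to the cell, rose by 1.46 on the log2 scale. MMP15, a membrane-bound matrix protease, rose by 1.57, and SERPINF1, a secreted neurotrophic serpin, by 1.48.

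The same 2 lines were also sequenced in trametinib at 20 nM, as 3 other libraries of each, which lets the DMSO comparison be read again. There 1259 genes (7.77%) were higher and 1152 (7.11%) lower in YAPKO1 than in sgCON. Of the 993 genes higher in DMSO, 591 (59.5%) were also called higher in trametinib, which is 46.9% of the genes higher there, and 0 were called lower by limma. Of the 934 genes lower in DMSO, 545 (58.4%) were called lower again, which is 47.3% of the genes lower there, and 3 were called higher, MAOA, KDM5B and DEPTOR. The DMSO calls of these 3 were lost in fits without 1 library, with adjusted p of up to 0.0817 for MAOA, 0.116 for KDM5B and 0.188 for DEPTOR. The sign of the log2 change was the same for 955 (96.2%) of the higher and 881 (94.3%) of the lower genes. The trametinib libraries also differed in their relation to GC content. The log2 difference along GC was 0.381, -0.0743 and 0.522 in YAPKO1, against -0.146, -0.280 and -0.153 in sgCON. The part that GC content had in the shared calls and signs was not tested. All 15 largest rises and all 15 largest falls were called the same way in trametinib. PRRX1 was at 3.99, LPAR3 at 3.61, CD36 at -2.72 and MOXD1 at -3.22 on the log2 scale there. Among the lists, p53 targets had 20 of 25 members lower in trametinib, ribosomal protein genes 18 of 49 higher, and E2F and DNA replication genes 0 higher by limma and 10 of 46 lower.

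**Figure D4:**
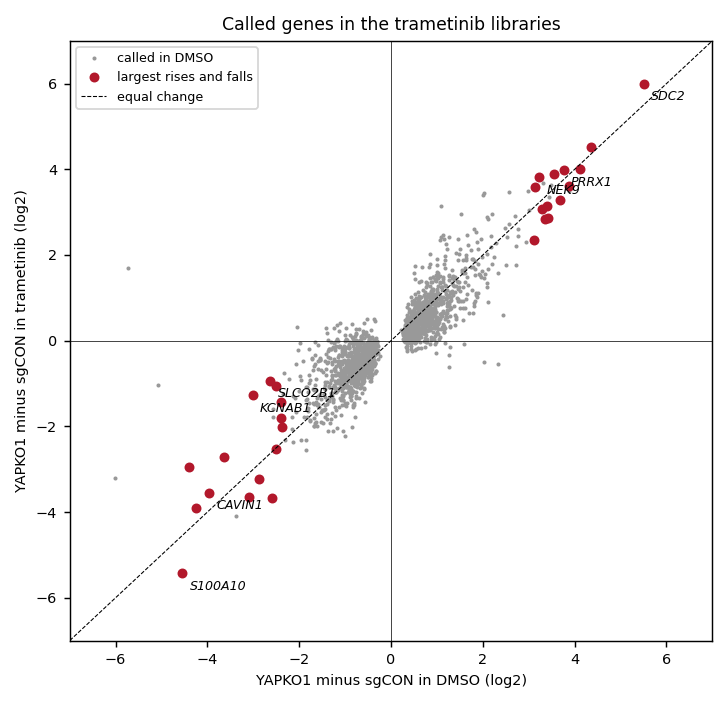
Log2 change of YAPKO1 against sgCON in DMSO (horizontal) and in trametinib (vertical) for the genes called in DMSO (grey) and for 14 of the 15 largest rises and the 15 largest falls (red), with a dashed line of equal change. The red points lie in the lower left and upper right, and KCNAB1 and SLCO2B1 lie above the line, with falls of 3.02 and 2.63 in DMSO and of 1.27 and 0.94 in trametinib. For SLCO2B1 the added 0.5 limits the fold in trametinib, where it averaged 0.0164 FPKM in YAPKO1 and 0.489 FPKM in sgCON.

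YAPKO2, which carries the other guide, allows the 2 knockout lines to be tested against each other, and 521 genes (3.22%) were higher and 601 (3.71%) lower in YAPKO1 than in YAPKO2 in DMSO. The YAPKO2 mean lay on the same side of the sgCON mean as YAPKO1 for 12 of the 15 largest rises and all 15 largest falls. Among these rises, 7 were also called above YAPKO2, and among the falls 8 were above and 1 was below. PRRX1 averaged 11.1 FPKM in YAPKO1, 0.262 FPKM in YAPKO2 and 0.359 FPKM in sgCON, and the lines differed by 3.93 (adjusted p = 8.5e-10). ADAMTS2 followed the same order, with 13.1 FPKM in YAPKO1, 0.146 FPKM in YAPKO2 and 0.163 FPKM in sgCON, a difference between the knockout lines of 4.38 (adjusted p = 4.92e-10). ARHGAP22 and TNNI1 were also above YAPKO2, by 3.00 and 2.61 on the log2 scale. Their YAPKO2 means of 0.30 and 1.10 FPKM lay above the sgCON means of 0.12 and 0.59 FPKM. ADCYAP1R1, in contrast, averaged 10.3 FPKM in YAPKO1 and 11.2 FPKM in YAPKO2, and the test found no difference between the lines (-0.14, adjusted p = 0.83). Among the falls, MOXD1 averaged 6.43 FPKM in YAPKO1 and 0.301 FPKM in YAPKO2, and MME 3.36 FPKM in YAPKO1 and 0.0666 FPKM in YAPKO2, differences of 3.09 and 2.78. KCNAB1 went the other way, at 0.755 FPKM in YAPKO1 and 3.76 FPKM in YAPKO2 (-1.74, adjusted p = 6.5e-06). CXCR4 averaged 3.40 FPKM in YAPKO1 and 33.7 FPKM in YAPKO2, and NPY 10.2 FPKM in YAPKO1 and 1.41 FPKM in YAPKO2, both past the test.

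Some changes followed the position of genes along chromosomes, a pattern examined after the data were seen. Protein-coding genes in chromosome order were taken in 305 bins of up to 40 neighbours, and the median bin had 5% of its genes called higher and 5% lower. The first bin of chromosome 9, from WASHC1 to MTAP, had 28 of 40 genes lower and 0 higher by limma, with a median log2 change of -0.84. Its median difference from the sgCON mean was -0.68, -0.87 and -1.04 in the YAPKO1 libraries and -0.11, -0.49 and -0.22 in the YAPKO2 libraries, while the parental libraries lay between -0.0021 and 0.11. JAK2, the cytokine receptor kinase in that bin, had 0.661, 0.475 and 0.213 FPKM in YAPKO1, against 1.59, 1.33 and 1.19 FPKM in sgCON (-1.0, adjusted p = 0.0131), and lost its call without YAPKO1 replicate 3 (0.0733) or sgCON replicate 1 (0.058). The next bin, from CDKN2A to VCP, had 21 genes lower, and the 1 gene higher was CDKN2A. In that bin the YAPKO1 libraries were at -0.53, -0.47 and -0.37, and 24 of its genes were lower than in YAPKO2.

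**Figure D5:**
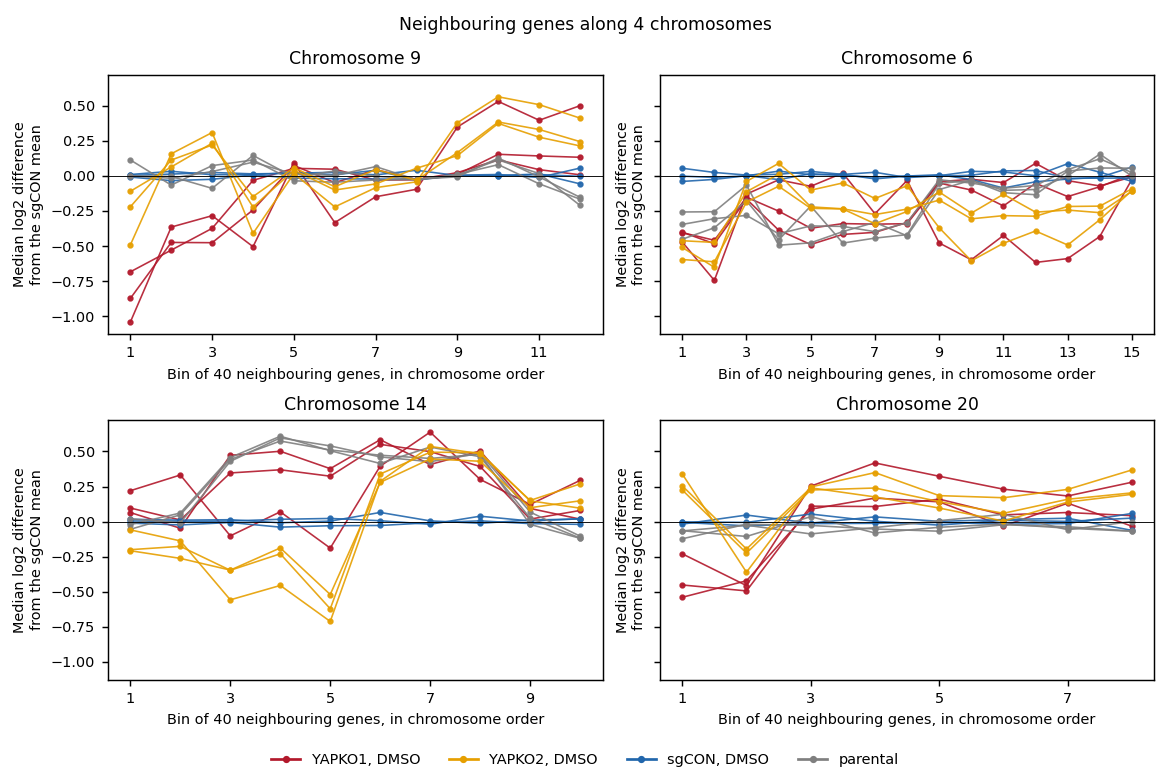
Median log2 difference from the sgCON mean for bins of 40 neighbouring protein-coding genes along chromosomes 9, 6, 14 and 20, with 1 line per library of YAPKO1 (red), YAPKO2 (orange) and sgCON (blue) in DMSO and of parental cells (grey). The first 2 bins of chromosome 9 are lowest in YAPKO1, while in the bins of chromosome 14 from PPP2R5E to TGFB3 all lines but sgCON lie above 0.

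In 4 further bins at least 40% of the genes were called 1 way. On chromosome 6, from GFOD1 to HIST1H4C, 21 genes were lower with a median of -0.61, and the parental libraries lay at -0.26 to -0.37 and the YAPKO2 libraries at -0.47 to -0.65. On chromosome 20, from AP5S1 to KAT14, 18 genes were lower with a median of -0.41, and the parental libraries lay at -0.02 to -0.11 and the YAPKO2 libraries at -0.20 to -0.36. On chromosome 14, 20 genes from PPP2R5E to PCNX1 and 17 genes from SIPA1L1 to TGFB3 were higher, each bin with a median of 0.49. In those 2 bins the parental libraries lay at 0.41 to 0.53 and the YAPKO2 libraries at 0.28 to 0.54, so sgCON was the line that stood apart. NEK9, a mitotic kinase on chromosome 14, shows it for 1 gene: 7.13, 9.39 and 6.46 FPKM in YAPKO1, against 0.5, 0.393 and 0.219 FPKM in sgCON, with means of 9.70 FPKM in YAPKO2 and 8.21 FPKM in parental cells. Its log2 change of 3.22 thus sets YAPKO1 against the 1 line of these 4 in which NEK9 was low. The part that position had in these changes was not tested. Calls were also uneven over whole chromosomes. On chromosome 6, 98 of 597 protein-coding genes were lower (16.4%) and 16 higher (2.68%). On chromosome 14, 87 of 404 were higher (21.5%) and 9 lower (2.23%). The genes outside the bins therefore still hold part of these shifts. Outside the 240 genes of the 6 bins, 953 genes (5.97%) were higher and 846 (5.30%) lower of 15954. There, 1 of 20 Notch, 0 of 20 synaptic vesicle and 1 of 18 mesenchymal factor genes were lower, and 7, 2 and 5 were higher. The YAP target and p53 target lists kept 8 and 10 lower members. RPS6 and ZDHHC21 also lie in the bins of chromosome 9.

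Markers of other cell types were low or mixed. FOXD3 and CDH19 of the Schwann lineage, CDH1 and KRT14 of epithelium, and CD3E and HBB of blood were at 0 in all 6 libraries, and PTPRC did not exceed 0.0299 FPKM. Other members were not at 0. PMP22 averaged 6.87 FPKM in YAPKO1 and 5.08 FPKM in sgCON, MUC1 0.593 and 0 FPKM, and CD14 0.226 and 0.853 FPKM. None of the 5 tested Schwann cell and glial markers was called by limma, with 2 higher at an unadjusted p under 0.05 and 1 called without sgCON replicate 2. Their summed level was 11.2 to 13.8 FPKM in YAPKO1, against 8.49 to 11.2 FPKM in sgCON. Of 4 epithelial markers tested CLDN4, a tight junction claudin, was called lower, at 0.383, 0.455 and 0.506 FPKM in YAPKO1, against 1.36, 1.84 and 1.87 FPKM in sgCON, and the summed level of the list was 2.01 to 2.98 FPKM in YAPKO1, against 2.31 to 2.34 FPKM in sgCON. No blood or endothelial marker passed the filter on low values, and that list summed to 0.623 to 0.850 FPKM in YAPKO1, against 0.559 to 1.42 FPKM in sgCON. The part of these cell types in the results was not tested. Fibroblast markers are expressed by these cells: their summed level was 503, 445 and 233 FPKM in YAPKO1, against 529, 537 and 457 FPKM in sgCON. LUM, the matrix proteoglycan lumican, had 364, 309 and 80.6 FPKM in YAPKO1, against 373, 388 and 292 FPKM in sgCON, so that YAPKO1 replicate 3 was low by itself (-0.74, adjusted p = 0.483). Of the 8 fibroblast markers tested 3 were higher and 2 were lower, with 1 lower without sgCON replicate 1 or 3 and 0 without YAPKO1 replicate 1. Of 9 sympathetic neuroblast markers tested 3 were higher (33.3%) and 2 were lower (22.2%). Their summed level was 277 to 296 FPKM in YAPKO1, against 320 to 333 FPKM in sgCON. HAND2 was above 40 FPKM in all 6 libraries, while STMN2, a growth-associated protein of neurons, had 28.3, 28.3 and 20.4 FPKM in YAPKO1, against 81.7, 88.0 and 75 FPKM in sgCON. TH and CHGA of the same list did not exceed 0.0608 and 0.575 FPKM. Nearest to the threshold, SYNGR2 and ZDHHC21 passed with adjusted p of 0.0497 and 0.0499, and MYO10 and PDK4 missed it with 0.0501 and 0.0502. SYNGR2 and ZDHHC21 each lost the call in 5 of the 6 fits without 1 library, with adjusted p of up to 0.135 and 0.223.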

How the data were processed

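Total RNA of NLF cells was sequenced after ribosomal RNA removal, using a stranded kit, per the labels' protocols. The authors deposited FPKM for 57820 genes, from alignment to hg19 with STAR 2.4.2 and quantification with RSEM 1.3.0, per the submitters' processing notes. Whether strand was used in quantification is not given in the sources used here, so antisense genes are uncertain. FPKM carry no read counts, so no counting interval is given. A second deposited table holds the same FPKM times 1 factor per library and served as an alternative.

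Library scaling used the median, over genes, of the ratio to the geometric mean of all libraries. A gene was tested if its FPKM reached 1 in 3 or more libraries (16194). limma 3.58.1 (R 4.3.3) modelled log2(scaled FPKM + 0.5) by 7 group means across the 21 libraries, with an eBayes trend. Adding 0.5 understates changes of low genes. Tests were two-sided, with Benjamini-Hochberg adjustment over all genes tested. A single value of 3 against 3 cannot go below an exact permutation p of 0.1. The fit was tested on simulated data.

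Gene type, order and GC content came from GENCODE v29 (GRCh38), guide positions from its transcripts, and promoters from RefSeq (GRCh38.p14). No hg19 coordinate is used.

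The members and the gene lists were chosen with earlier results of these data known. Lists are described by counts and medians, with no test of a list. Named genes were YAP1, then, among protein-coding genes with a readable symbol, an adjusted p under 0.05 and no overlap of the 3 and 3 values, the 15 largest rises and 15 largest falls by log2 change and 5 each by difference in FPKM, up to 5 members of each list with the largest absolute change, and the 2 genes on either side of the threshold. Members named beside them, and H19, JAK2, KDM5B, DEPTOR and the bins of neighbouring genes, were picked with their values in view. Alternative settings were the calibrated table, quantile normalization, unscaled values, unfiltered genes, pseudocounts of 0.1 and 1, only the groups compared, a replicate block, a spline correction for GC content (5 degrees of freedom), both together, and leaving out each library. Added after seeing the data were the GC correction without YAPKO1 replicate 3, and counts without that replicate or without the bins. A few genes that these rules name are not reported here.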

Additional observations from a re-analysis of the deposited data

Results flagged for a closer look

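Among the genes named here and the called list members, 7 had a difference between YAPKO1 and sgCON that changed with treatment, by the limma interaction term adjusted over all genes tested. Each value is the log2 difference in trametinib minus that in DMSO, and n = 3 libraries per group.

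KCNAB1 averaged 0.755 ± 0.013 FPKM in YAPKO1 and 9.67 ± 0.40 FPKM in sgCON in DMSO (SD), and 1.54 ± 0.59 FPKM in YAPKO1 and 4.32 ± 0.55 FPKM in sgCON in trametinib, and the difference changed by 1.74 (adjusted p = 0.00751). NRP1 averaged 7.49 ± 0.63 FPKM in YAPKO1 and 30.4 ± 2.6 FPKM in sgCON in DMSO, and 17.1 ± 0.85 FPKM in YAPKO1 and 32.9 ± 6.0 FPKM in sgCON in trametinib, a change of 1.05 (adjusted p = 0.02). In both genes YAPKO1 was lower in each treatment, and less so in trametinib. SLCO2B1 changed by 1.69 (adjusted p = 0.0314), with trametinib means of 0.0164 FPKM in YAPKO1 and 0.489 FPKM in sgCON, where the pseudocount limits the fold.

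MAOA, which degrades noradrenaline and serotonin, averaged 61.1 ± 1.6 FPKM in YAPKO1 and 78.4 ± 4.1 FPKM in sgCON in DMSO, and 104 ± 8.9 FPKM in YAPKO1 and 75.3 ± 2.8 FPKM in sgCON in trametinib, a change of 0.81 (adjusted p = 0.011). KDM5B, a histone demethylase, averaged 13.1 ± 1.7 FPKM in YAPKO1 and 17.1 ± 0.29 FPKM in sgCON in DMSO, and 17.9 ± 2.2 FPKM in YAPKO1 and 12.4 ± 0.56 FPKM in sgCON in trametinib, a change of 0.88 (adjusted p = 0.0248). Both were called lower in DMSO and higher in trametinib, and both lost the DMSO call when single libraries were left out, MAOA without sgCON replicate 2 (adjusted p = 0.0817) and KDM5B in 5 of 6 such fits.

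ALK changed by 1.17 (adjusted p = 0.0377), with trametinib means of 1.98 ± 0.40 FPKM in YAPKO1 and 0.106 ± 0.025 FPKM in sgCON. In DMSO, ALK was near the pseudocount in YAPKO1 and far under it in sgCON, which limits the fold there. SCN3B, a sodium channel beta subunit, changed by 1.22 (adjusted p = 0.0377). Its means were 0.222 ± 0.053 FPKM in YAPKO1 and 0 in sgCON in DMSO. In trametinib they were 1.49 ± 0.12 FPKM in YAPKO1 and 0.0931 ± 0.010 FPKM in sgCON. The DMSO call of SCN3B was lost in all 6 fits without 1 library, and both its DMSO means were under the pseudocount. For ALK and SCN3B the interaction term therefore cannot separate an effect of treatment from the limit that the pseudocount sets on the DMSO fold.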

How the results depend on the processing

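The count of genes called in DMSO moved most when the spread came from the 2 groups alone (737) and with the GC correction (2979, or 2148 without YAPKO1 replicate 3). Leaving out single libraries gave 1226 to 2111 calls in DMSO, 1429 to 2153 in trametinib and 762 to 1409 between YAPKO1 and YAPKO2. The fewest in DMSO came without sgCON replicate 3, 2 or 1 (1226, 1235 and 1280) and without YAPKO1 replicate 3 (1288). In trametinib the count fell to 1594 and 1429 without YAPKO1 replicate 1 or 3, and to 1574 and 1495 without sgCON replicate 1 or 2. Between YAPKO1 and YAPKO2 there were 1773 calls with the GC correction and 305 with the 2 groups alone. The cause of these shifts was not tested. The YAP1 change stayed past the threshold in every setting run, at -0.95 to -1.21 when single libraries were left out. Of 748 values for 44 named genes, 684 stayed on the same side of the threshold, 53 lost the call and 11 gained it, with 0 reversed. Of 2431 values for 143 called list members, 274 lost the call, and 86 genes kept it throughout. The median log2 change of chromosome 20 was 0.07, and it reversed to -0.0045 without YAPKO1 replicate 3, against up to 0.0886 without another library.

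The same-numbered YAPKO1 and sgCON libraries shared no clear deviation from their group means, with correlations of -0.0076, -0.0054 and 0.0314. These values cannot show whether libraries of the same number were handled together. With a replicate block 1652 genes were called, and 2744 with the block and the GC correction. FPKM hold no depth, so changes of genes near 0 FPKM are the least certain.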
